A study of Mus musculus with 4 samples.

Results

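Of the 24346 gene symbols listed, 10 were examined here: Trem2, Gpnmb, Cd9, Spp1, Lpl, Fabp5, Lgals3, Itgax, Mmp12 and Cd68, which mark the lipid-associated macrophage. The set was fixed by gene symbol, and it was chosen on results already known from these libraries, namely the differences of these genes between the diets and between replicates. Their values are therefore given as a description, with no p-value for any member, and the limma calls among them are given only as a count. All 10 genes passed the filter on low values, a mean of at least 0.5 FPKM, which kept 12299 genes. FPKM is the number of fragments mapped to a gene scaled by the length of its exons and by the mapped fragments of the library, so levels of different genes can be compared on it.

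The samples were livers of male C57BL/6 mice that started the diets as young adults and were wild type. Each of them ate the NASH diet, rich in fat, cholesterol and sucrose with added cholate, for 3 weeks, a model of steatohepatitis driven by diet alone. The control group (n = 2 libraries) received this diet, and in the 7KC group (n = 2 libraries) it also contained 7-ketocholesterol (7KC), an oxidized form of cholesterol. The labels number the libraries of a group as replicates and do not say which animal each came from. Any spread within a group is therefore that between these libraries.

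Lipid-associated macrophages appear where macrophages meet excess lipid, in obese fat tissue, atherosclerotic plaque and fatty liver. In steatohepatitis they arise largely from recruited monocytes and gather around fat-laden or dying hepatocytes. TREM2, a lipid-sensing surface receptor that signals through the adapter TYROBP (DAP12), defines the state, and cells in it take up lipoproteins and cell debris, store lipid droplets and digest cargo in lysosomes. Several of the marker genes are also active in other cells: Spp1 in bile duct cells, Cd9 in many cell types, Fabp5 in hepatocytes, Itgax in dendritic cells and Cd68 in all macrophages. The libraries were made from whole liver, where more cells of a type and more RNA per cell cannot be told apart.

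In whole liver the genes showed 2 patterns. Spp1, Lpl, Fabp5, Lgals3, Itgax and Cd68 were higher in both 7KC libraries than in both control libraries, whereas Trem2, Gpnmb, Cd9 and Mmp12 overlapped between the diets. Non-overlap with the 7KC group above was found in 6 of 10 members and in 25.1% of all tested genes, and non-overlap with the 7KC group below in 0 of 10 members and 27.4% of all tested genes. On the log2(FPKM + 0.5) scale the difference between group means (7KC minus control, here called the log2 change) had a median of 1.17 over the 10 members and of -0.03 over all tested genes. The median over members was 0.41 without 7KC replicate 2 and 1.60 without 7KC replicate 1. In the limma fit across all genes, 0 of 10 members had an adjusted p under 0.05 (5 had an unadjusted p under it), where 0.480% of all genes were called higher, 0.0244% were called lower and 17.8% had an unadjusted p under 0.05. Because the members were chosen on this contrast, nothing is read from these shares.

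**Figure D1:**
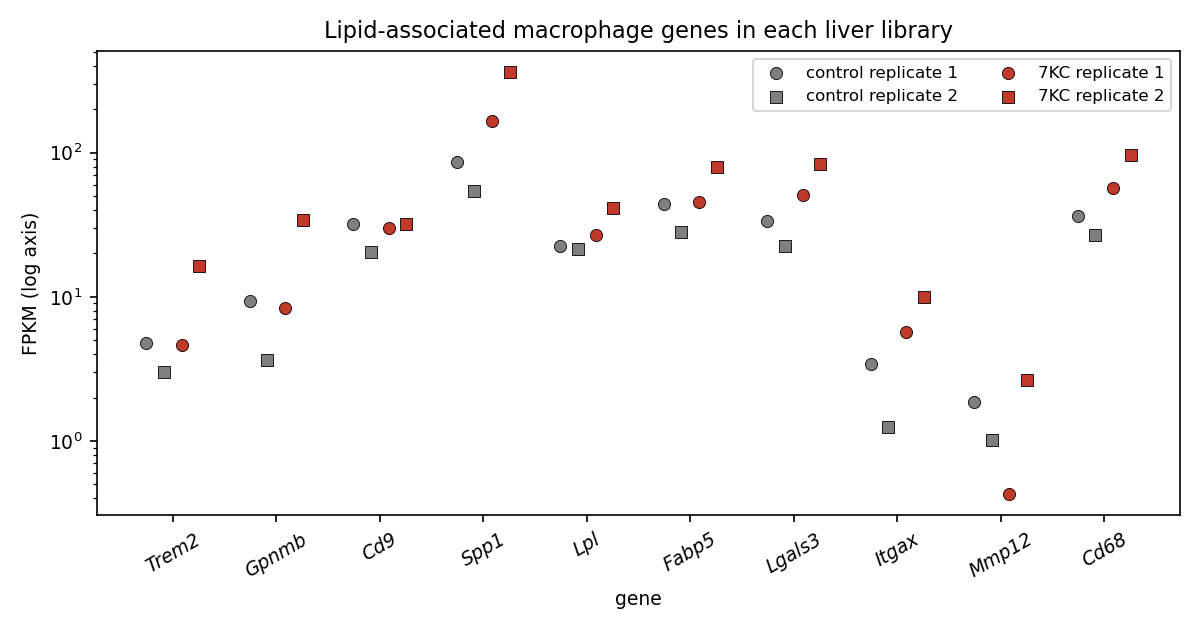
FPKM on a log axis for each of the 10 genes, with 1 point per library (grey, control; red, 7KC; circles, replicate 1; squares, replicate 2). 7KC replicate 2 was the highest library for 9 genes, and control replicate 2 the lowest for 9.

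Depth was similar between the groups. From the steps between low values, the libraries were estimated to hold 13600000 to 17100000 mapped reads. Of the low values used, 71.0% to 72.7% came out as whole reads within 0.1 of a read, where 20% would by chance. With these depths Trem2 corresponded to about 72 and 37 reads in control replicates 1 and 2 and about 56 and 200 reads in 7KC replicates 1 and 2. Mmp12 was the thinnest measurement: in 7KC replicate 1 it stood for about 7 reads on its annotated coding transcript of 1452 bases, or about 20 on that of 3607 bases. The remaining 8 genes had at least 66 estimated reads in every library.

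The stretch before the transcription start of each member was read first, as a description of its sequence. RefSeq (GRCm38.p6) gave 10 start sites for 8 of the 10 members. The 250 bases before each were searched on both strands for GAGGAAG (a core sequence bound by PU.1 and other ETS factors), for TGACTCA or TGAGTCA (the AP-1 site) and for CACGTG (the E-box core of MITF and TFEB). The motif GAGGAAG stood before 3 of the 10 start sites (Trem2, Spp1 and Mmp12) and is found before 10.6% of 32851 mouse start sites. An AP-1 site stood before 3 (Cd68, Itgax and the second start site of Mmp12), against 4.46% of all, and CACGTG before 0, against 6.02%. A match is a run of letters and not a measured binding site. The 160 bases before the start are shown for 4 members, 2 with the PU.1 core and 2 with the AP-1 site, 5′ to 3′ on the strand of the gene and with the motif in capitals (CTTCCTC is GAGGAAG on the other strand).
Trem2, chr17:48346241-48346400, plus strand: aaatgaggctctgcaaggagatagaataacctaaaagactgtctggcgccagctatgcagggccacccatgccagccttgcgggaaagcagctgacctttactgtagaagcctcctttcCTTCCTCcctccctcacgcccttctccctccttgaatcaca
Spp1, chr5:104434951-104435110, plus strand: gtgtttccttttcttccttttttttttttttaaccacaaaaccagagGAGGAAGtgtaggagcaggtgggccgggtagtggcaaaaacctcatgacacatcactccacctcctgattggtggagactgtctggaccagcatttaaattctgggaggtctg
Itgax, chr7:128129390-128129549, plus strand: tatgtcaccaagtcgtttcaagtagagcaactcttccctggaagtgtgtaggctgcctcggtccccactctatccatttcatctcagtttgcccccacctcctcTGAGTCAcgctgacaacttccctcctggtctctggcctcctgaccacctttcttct
Cd68, chr11:69666171-69666330, minus strand: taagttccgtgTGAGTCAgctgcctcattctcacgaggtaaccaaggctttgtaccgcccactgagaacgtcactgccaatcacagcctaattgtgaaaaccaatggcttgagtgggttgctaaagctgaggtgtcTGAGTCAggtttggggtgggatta
In Trem2 the motif began 41 bases before the start and in Spp1 113 bases before it. The AP-1 site began 56 bases before the start of Itgax, and in Cd68 the sites began 149 and 24 bases before it. Trem2 and Spp1 shared the PU.1 core but not the order of the libraries, since Trem2 overlapped between the diets and Spp1 did not.

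Trem2 (chromosome 17, 48346401 to 48354147, plus strand, GRCm38) encodes the receptor for which the state is named. It was at 4.75 and 3.02 FPKM in control replicates 1 and 2, against 4.63 and 16.3 FPKM in 7KC replicates 1 and 2. The group means were 3.89 ± 1.22 and 10.5 ± 8.29 FPKM (SD, n = 2 each), a log2 change of 1.11 (SE 0.57). The larger mean of the 7KC group came from its replicate 2, since 7KC replicate 1 was at 0.973 times control replicate 1 and the diets overlapped. Without 7KC replicate 2 the log2 change was 0.25, and without 7KC replicate 1 it was 1.97.

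Gpnmb (chromosome 6, 49036546 to 49070929, plus strand), a transmembrane glycoprotein of lysosome-rich, lipid-loaded phagocytes, followed Trem2 closely. Control replicates 1 and 2 were at 9.37 and 3.67 FPKM and 7KC replicates 1 and 2 at 8.40 and 34.3 FPKM. Its means were 6.52 ± 4.03 and 21.4 ± 18.3 FPKM (SD, n = 2 each), a log2 change of 1.46 (SE 0.72). Here too 7KC replicate 1 lay below control replicate 1, at 0.897 times its level. The log2 change of Gpnmb was 0.47 without 7KC replicate 2 and 2.44 without 7KC replicate 1.

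Mmp12 (chromosome 9, 7344381 to 7369499, plus strand), the macrophage elastase that digests extracellular matrix, was the lowest member on the FPKM scale. It was at 1.88 and 1.02 FPKM in control replicates 1 and 2, against 0.427 and 2.65 FPKM in 7KC replicates 1 and 2. Thus 7KC replicate 1 was the lowest of the 4 libraries and 7KC replicate 2 the highest, and the log2 change was -0.15 (SE 0.60). Its sign turned when the libraries were rescaled to the same sum (0.01) and without control replicate 1 (0.17) or 7KC replicate 1 (0.73), and it was -1.03 without 7KC replicate 2.

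Cd9 (chromosome 6, 125460266 to 125494791, minus strand) encodes a tetraspanin, a membrane organizer found on these macrophages and on many other cells. It was at 32.1 and 20.3 FPKM in control replicates 1 and 2, against 30.2 and 31.8 FPKM in 7KC replicates 1 and 2. Control replicate 2 was low and the other libraries were level, with control replicate 1 the highest. The log2 change was 0.27 (SE 0.22), and -0.05 without control replicate 2.

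Spp1 (chromosome 5, 104435118 to 104441050, plus strand) encodes osteopontin, a secreted matrix protein and cytokine that binds integrins and CD44. It had the largest log2 change and the highest levels among the members. Control replicates 1 and 2 were at 85.6 and 54.1 FPKM, and 7KC replicates 1 and 2 at 165 and 363 FPKM. The means of 69.8 ± 22.3 and 264 ± 140 FPKM (SD, n = 2 each) had a ratio of 3.78, and the log2 change was 1.84 (SE 0.42). Both 7KC libraries were clear of the controls, 7KC replicate 1 being at 1.92 times control replicate 1. Leaving out 1 library at a time gave log2 changes between 1.27 (without 7KC replicate 2) and 2.41 (without 7KC replicate 1).

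Itgax (chromosome 7, 128129547 to 128150657, plus strand) encodes CD11c, the alpha chain of a leukocyte integrin carried by dendritic cells and by macrophages of this state. It was at 3.43 and 1.24 FPKM in control replicates 1 and 2, against 5.70 and 9.96 FPKM in 7KC replicates 1 and 2. Its means were 2.34 ± 1.55 and 7.83 ± 3.01 FPKM (SD, n = 2 each), a log2 change of 1.62 (SE 0.45). The diets did not overlap. Leaving out control replicate 2 gave 1.03 on the log2 scale, and leaving out control replicate 1 gave 2.21.

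Cd68 and Lgals3 had nearly the same level and log2 change. Cd68 (chromosome 11, 69664213 to 69666153, minus strand), a lysosomal glycoprotein of all macrophages, was at 36.4 and 26.9 FPKM in control replicates 1 and 2, against 56.5 and 96.9 FPKM in 7KC replicates 1 and 2, a log2 change of 1.23 (SE 0.29). Lgals3 (chromosome 14, 47367751 to 47386160, plus strand), which encodes galectin-3, a sugar-binding protein of phagocytes, was at 33.5 and 22.6 FPKM in control replicates 1 and 2, against 50.5 and 83.4 FPKM in 7KC replicates 1 and 2, a log2 change of 1.22 (SE 0.30). For both genes the libraries stood in the same order and 7KC replicate 1 was at least 1.51 times control replicate 1. The log2 change was 0.84 for Cd68 and 0.86 for Lgals3 without 7KC replicate 2.

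The lipid-handling members had the smallest log2 changes among the genes that did not overlap. Fabp5 (chromosome 3, 10012548 to 10016607, plus strand), a fatty acid binding protein of macrophages and epidermis, was at 44.2 and 28.0 FPKM in control replicates 1 and 2, against 45.1 and 79.0 FPKM in 7KC replicates 1 and 2, a log2 change of 0.75 (SE 0.33). Its non-overlap was narrow, with 7KC replicate 1 at 1.02 times control replicate 1. Lpl (chromosome 8, 68880491 to 68907448, plus strand), lipoprotein lipase, the enzyme that frees fatty acids from triglyceride-rich lipoproteins, was at 22.6 and 21.6 FPKM in control replicates 1 and 2, against 26.7 and 41.6 FPKM in 7KC replicates 1 and 2. The control replicates of Lpl nearly coincided, and its log2 change was 0.58 (SE 0.22), or 0.27 without 7KC replicate 2 and 0.90 without 7KC replicate 1.

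The next comparison was between replicates of the same diet. Control replicate 1 was above control replicate 2 in 10 of 10 members (53.9% of all tested genes), and 7KC replicate 2 was above 7KC replicate 1 in 10 of 10 (47.7% of all tested genes). On FPKM + 0.5, 7KC replicate 2 was at least 1.5-fold above 7KC replicate 1 in 9 of 10 members, all but Cd9, against 4.37% of all tested genes. Control replicate 1 was at least 1.5-fold above control replicate 2 in 6 of 10 members, against 5.08% of all tested genes. The fold of 1.5 was set after the values were seen, and the spread between replicates was among the values on which the members were chosen.

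The largest gaps within the 7KC group were those of Mmp12, Gpnmb and Trem2, where 7KC replicate 2 was 6.21, 4.09 and 3.53 times 7KC replicate 1 on the FPKM scale. The ratio was 2.20 for Spp1 and between 1.56 and 1.75 for Lpl, Lgals3, Cd68, Itgax and Fabp5, and it was 1.05 for Cd9. Within the control group the largest ratios of replicate 1 to replicate 2 were 2.76 for Itgax and 2.56 for Gpnmb. Lpl, at 1.05, differed least there. The order control replicate 2, control replicate 1, 7KC replicate 1, 7KC replicate 2 from low to high was seen in 6 of 10 members and in 12.0% of all tested genes.

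**Figure D2:**
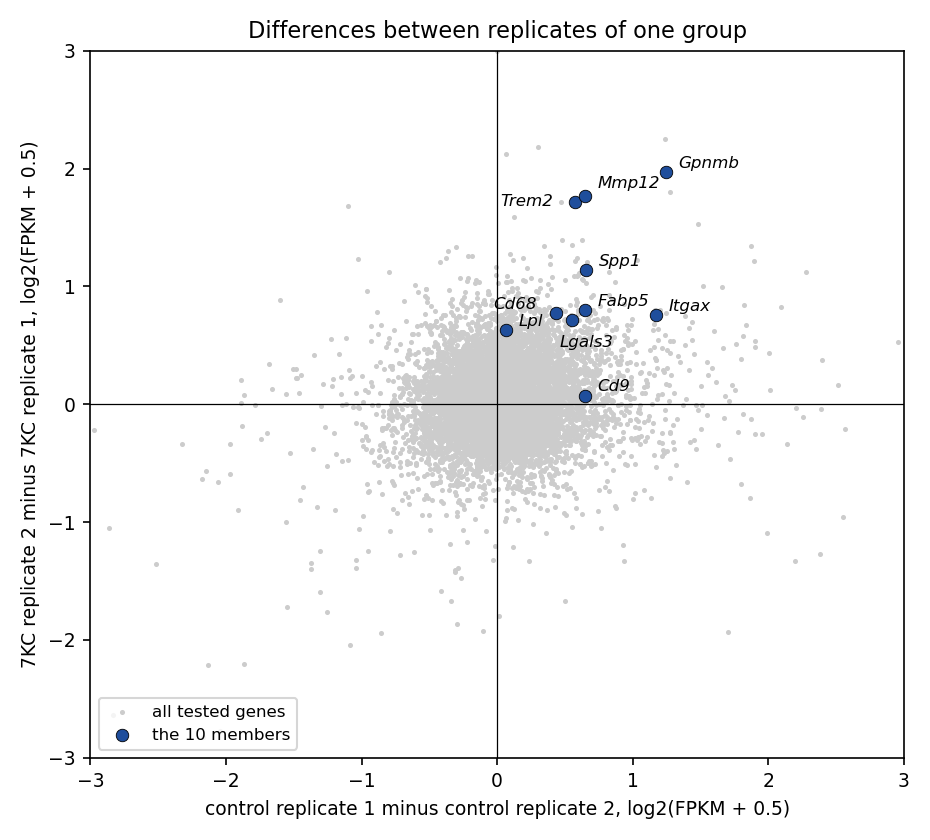
Difference between replicates on the log2(FPKM + 0.5) scale, in the control group (x axis, replicate 1 minus replicate 2) and in the 7KC group (y axis, replicate 2 minus replicate 1), for all tested genes (grey, those within 3 on both axes) and the 10 members (blue). All members lie above 0 on both axes, with Gpnmb, Mmp12 and Trem2 highest on the y axis and Cd9 near 0 there.

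Since Cd68 and other markers that all macrophages share were also higher in the 7KC libraries, each member was set against a list of 12 such markers in the same library (among them Adgre1, Csf1r, Lyz2, Itgam, C1qa, Fcgr1, Mertk and Laptm5). Their summed FPKM was 1216 and 932 in control replicates 1 and 2, against 1965 and 2938 in 7KC replicates 1 and 2, and their mean log2 level was 0.93 higher in the 7KC group. Both 7KC libraries were above both controls in 9 of these 12 markers and overlapped them in 3, and none of the 12 passed the limma threshold (9 had an unadjusted p under 0.05, all higher).

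Relative to these markers the members divided again. Spp1, Itgax and Cd68 remained higher in both 7KC libraries, with group differences of 0.91, 0.69 and 0.30 on the log2 scale. The separation was narrow for Itgax and Cd68. Itgax was at -3.09 in 7KC replicate 1 against -3.15 in control replicate 1, and Cd68 at 0.11 against 0.08. For Spp1 these values were 1.65 and 1.30. Cd9, Lpl and Mmp12 were lower in both 7KC libraries relative to the markers, with differences of -0.66, -0.35 and -1.08. Trem2, Gpnmb, Fabp5 and Lgals3 overlapped. Because the markers themselves rose by 0.93, a gene with the same level in both diets falls on this scale. A lower relative value is therefore no sign of a fall in the gene. Before this step Cd9 and Lpl had log2 changes of 0.27 and 0.58, and Mmp12 had -0.15. No share of all tested genes is given for this scale, so nothing is read from how many members lay above or below. Relative Trem2 was -2.73 and -3.15 in control replicates 1 and 2, against -3.36 and -2.16 in 7KC replicates 1 and 2, so that 7KC replicate 1 was the lowest library and 7KC replicate 2 the highest. The gap between the 7KC replicates persisted on this relative scale for Gpnmb (1.45), Mmp12 (1.25) and Trem2 (1.20), and it was 0.62 for Spp1 and between 0.11 and 0.29 for Lpl, Lgals3, Itgax, Cd68 and Fabp5. Cd9 differed the other way, by -0.44.

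**Figure D3:**
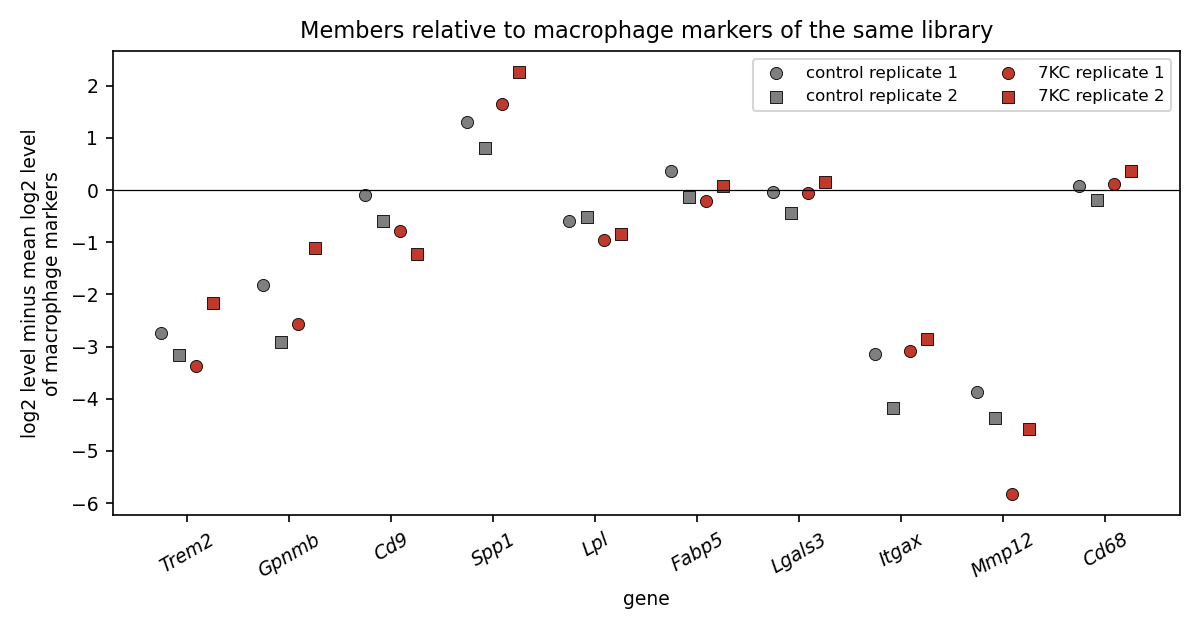
Log2(FPKM + 0.5) of each member minus the mean log2 level of 12 macrophage markers in the same library; symbols as in the plot of FPKM by gene. Spp1, Itgax and Cd68 have both 7KC points above both control points (narrowly for Itgax and Cd68), and Cd9, Lpl and Mmp12 have both below.

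The 12 companion lists held the partners, relatives and known co-markers of the members, 111 genes in all, of which 98 were tested by limma across all genes. The threshold was passed by 1 of them, Icam1, which was higher with 7KC, and by 0 lower genes, while 37 higher and 3 lower genes had an unadjusted p under 0.05 (40.8% of companion genes, against 17.8% of all tested genes). Called higher were thus 1.02% of companion genes, against 0.480% of all genes. Both 7KC libraries were above both controls in 54 of the 98 companion genes (55.1%, against 25.1% of all tested genes) and below in 17 (17.3%, against 27.4%). The lists were drawn up with earlier results of these libraries known.

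The signaling partners of TREM2 did not overlap between the diets, unlike Trem2 itself. All 7 genes of this list (Tyrobp, Hcst, Syk, Plcg2, Vav1, Inpp5d and Card9) had both 7KC libraries above both controls, with a median log2 change of 1.05, and 0 of 7 passed (6 had an unadjusted p under 0.05). Card9 and Hcst separated narrowly, with 7KC replicate 1 at 1.11 and 1.15 times control replicate 1. Medians of the leukocyte marker lists ran from 0.02 (resident Kupffer cells) to 1.44 (monocytes), with 0.85 for all macrophages and 1.12 for T and NK cells. Whether signaling through TREM2 differed was not tested. Tyrobp, the adapter, was at 145 and 111 FPKM in control replicates 1 and 2, against 243 and 332 FPKM in 7KC replicates 1 and 2, a log2 change of 1.16 (limma adjusted p 0.082, SE 0.21). Its level in 7KC replicate 1 was 1.68 times that in control replicate 1, where the ratio for Trem2 was 0.973. Vav1, a downstream exchange factor of leukocytes, had a log2 change of 1.19 (adjusted p 0.0621, SE 0.19).

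Among ligands and sheddases, Adam17, a protease that releases the TREM2 ectodomain, had a log2 change of 0.72 (limma adjusted p 0.0966, SE 0.15). The ligand gene Apoa1 was at -0.68 (adjusted p 0.304, SE 0.29). Of the other Trem receptor genes only Trem3 and Treml4 passed the filter, with log2 changes of 0.78 and 0.55 (adjusted p 0.142 and 0.218). Neither passed the threshold.

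Further genes of the lipid-associated state numbered 24, all tested, with a median log2 change of 0.55. Both 7KC libraries were above both controls in 14 and below in 2, and 0 passed (10 higher and 1 lower at an unadjusted p under 0.05). The smallest p-values were those of Cxcl16, a chemokine and scavenger receptor, with a log2 change of 1.04 (limma adjusted p 0.0619, SE 0.16), and Lgals1, galectin-1, with 1.16 (adjusted p 0.0634, SE 0.19). In 7 of the 24 (Lipa, Cd36, Cd63, Lgmn, Atp6v0d2, Timp2 and Syngr1) the libraries had 7KC replicate 1 below control replicate 1 and 7KC replicate 2 as the highest library. Trem2, Gpnmb and Mmp12 shared that arrangement, found in 8.77% of all tested genes, and it was looked for after their values were seen. The arrangement was not particular to this list. It was seen in 3 of 6 endothelial markers, 4 of 12 other tetraspanins and 3 of 9 tested metalloproteinases and inhibitors. Resident Kupffer cell markers had it in 2 of 7 genes, markers of all macrophages in 0 of 12 and the regulators in 0 of 13. Cd63, a tetraspanin of lysosomal membranes, had the largest log2 change (0.99) of the 7 lipid-associated genes named above. It was at 28.5 and 13.6 FPKM in control replicates 1 and 2, against 25.8 and 61.1 FPKM in 7KC replicates 1 and 2.

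The list of beta-2 integrins and their ligand had the highest median log2 change of the 12 lists, 1.46, and in all 4 tested genes the diets did not overlap. Icam1, the endothelial and leukocyte ligand of these integrins, was at 14.2 and 12.3 FPKM in control replicates 1 and 2 and rose to 36.1 and 31.7 FPKM in 7KC replicates 1 and 2, a log2 change of 1.32 (limma adjusted p 0.034, SE 0.13). Over the alternatives its adjusted p ranged from 0.00822 to 0.224, and the call was lost without a filter on low values (0.119), with a prior variance without a trend (0.0603), with a replicate block (0.151) and without control replicate 2 (0.0886), 7KC replicate 1 (0.152) or 7KC replicate 2 (0.224). Itgb2, the beta chain that pairs with CD11c, was at 16.8 and 12.1 against 36.2 and 53.6 FPKM, a log2 change of 1.59 (adjusted p 0.0617, SE 0.24), and Itgal, another alpha chain, was at 1.24 (adjusted p 0.0523, SE 0.16).

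The osteopontin receptor list had 8 tested genes with a median log2 change of 0.23. Cd44, the hyaluronan and osteopontin receptor of leukocytes, was at 0.93 (limma adjusted p 0.0813, SE 0.17), and Itga4, an integrin chain of lymphocytes and monocytes, at 1.34 (adjusted p 0.0519, SE 0.17). For both genes the diets did not overlap, and neither passed.

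Partners of lipoprotein lipase had mostly negative values: the log2 change was below 0 in 7 of 9 tested genes, with a median of -0.27, and 0 passed (1 higher and 2 lower at an unadjusted p under 0.05 in limma). Gpihbp1, which anchors the lipase to capillary endothelium, was at -0.04 (limma adjusted p 0.936, SE 0.23). Lmf2, a gene of lipase maturation, was at 0.34 (adjusted p 0.221, SE 0.11). The other fatty acid binding proteins had a median of -0.20 over 5 tested genes, with Fabp3 at 0.52 and Fabp4 at -0.35 (adjusted p 0.341 and 0.423).

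In the families of the remaining members, Lgals3bp, a secreted ligand of galectin-3, was at 0.84 (limma adjusted p 0.0966, SE 0.17). The tetraspanin genes Cd37 and Tspan3 were at 1.16 and 0.72 (adjusted p 0.135 and 0.104) in a list of 12 with a median of 0.28. Among metalloproteinases and inhibitors the smallest p-values were those of Mmp7 and Mmp14, at 1.05 and 0.89 (adjusted p 0.0973 and 0.104). Of 13 regulators, among them the lysosomal regulators Mitf and Tfeb and the lipid sensors Pparg and Nr1h3, 7 had a positive and 6 a negative log2 change. Spi1, which encodes the myeloid master regulator PU.1, was at 24.1 and 14.7 FPKM in control replicates 1 and 2, against 41.2 and 45.1 FPKM in 7KC replicates 1 and 2, a log2 change of 1.17 (adjusted p 0.0987, SE 0.24). Mitf was at 0.70 (adjusted p 0.138, SE 0.18).

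**Figure D4:**
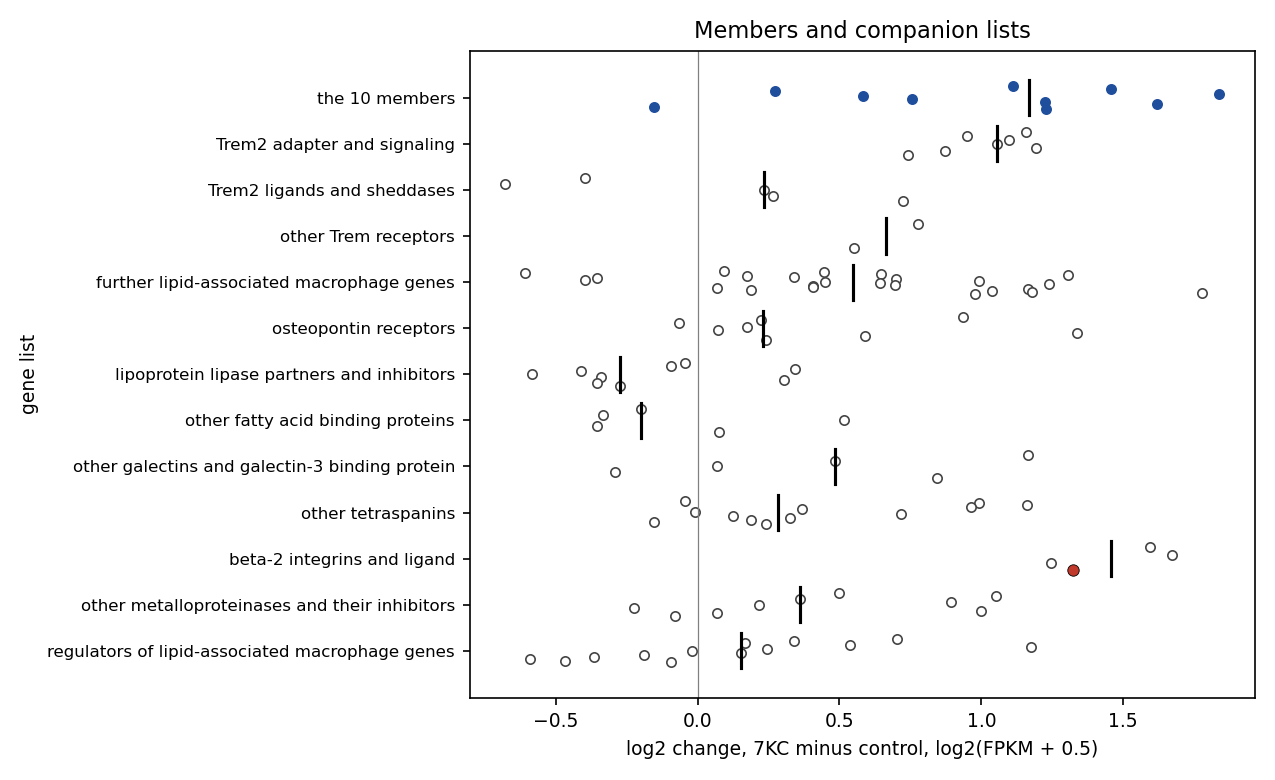
Log2 change (7KC minus control, on log2(FPKM + 0.5)) of the 10 members (blue, shown as a description) and of the tested genes of each companion list (open circles), with the list median as a black bar. The red point is Icam1, the companion gene with a limma adjusted p under 0.05; vertical position within a list has no meaning.

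Summed markers of other cell types also differed between the libraries, and their part in the results was not tested. Monocyte markers (6 genes, among them Ly6c2, Ccr2, Chil3 and Plac8) summed to 64.8 and 43.0 FPKM in control replicates 1 and 2, against 199 and 169 FPKM in 7KC replicates 1 and 2. Unlike the members they were higher in 7KC replicate 1 than in 7KC replicate 2. In 5 of 6 both 7KC libraries were above both controls, none passed, and 5 had an unadjusted p under 0.05. Resident Kupffer cell markers (Clec4f, Timd4, Vsig4, Cd5l, Marco, Folr2 and Cd163) summed to 306 and 308 FPKM in control replicates 1 and 2, against 352 and 525 FPKM in 7KC replicates 1 and 2, with both 7KC libraries above both controls in 3 of 7 markers and below in 2. Clec4f, the defining Kupffer cell gene, overlapped between the diets at 48.1 to 65.1 FPKM.

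Bile duct markers, relevant to Spp1, were low: the 7 genes summed to 3.42 to 5.85 FPKM over the 4 libraries. In both 7KC libraries 1 of 4 tested genes was above both controls and 1 was below. Which cells the Spp1 RNA came from was not tested. Dendritic cell markers, relevant to Itgax, summed to 6.51 and 5.22 FPKM in control replicates 1 and 2, against 9.19 and 9.26 FPKM in 7KC replicates 1 and 2, with both 7KC libraries above both controls in 3 of 5 tested genes. Adipocyte markers, relevant to Lpl, were near 0, with Lep listed at 0 in every library and a sum of 0.326 to 3.68 FPKM. T and NK cell markers, with both 7KC libraries above both controls in 6 of 6 tested genes, summed to 13.8 and 10.3 FPKM in control replicates 1 and 2, against 33.7 and 29.6 FPKM in 7KC replicates 1 and 2. Hepatocyte markers were below both controls in both 7KC libraries in 4 of 6 genes, with sums of 67793 and 56567 FPKM in control replicates 1 and 2, against 48686 and 36145 FPKM in 7KC replicates 1 and 2. The lowest sum was in 7KC replicate 2, the library in which 9 of 10 members were highest.

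Neutrophil markers (2 of 4 tested genes above both controls) summed to 18.3 to 33.9 FPKM in the control and 39.4 to 42.3 FPKM in the 7KC libraries, and B cell markers (1 of 3 above) to 2.26 to 6.68 and 6.40 to 6.41 FPKM. Stellate cell markers (3 of 7 below) summed to 200.1 to 207 FPKM in the control and 149.5 to 181 FPKM in the 7KC libraries. Endothelial markers (89.3 to 129 FPKM) overlapped between the diets in 6 of 6 genes, and red blood cell markers (60.7 to 112.5 FPKM) did so in 1 of 2 tested genes and were below both controls in the other.

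**Figure D5:**
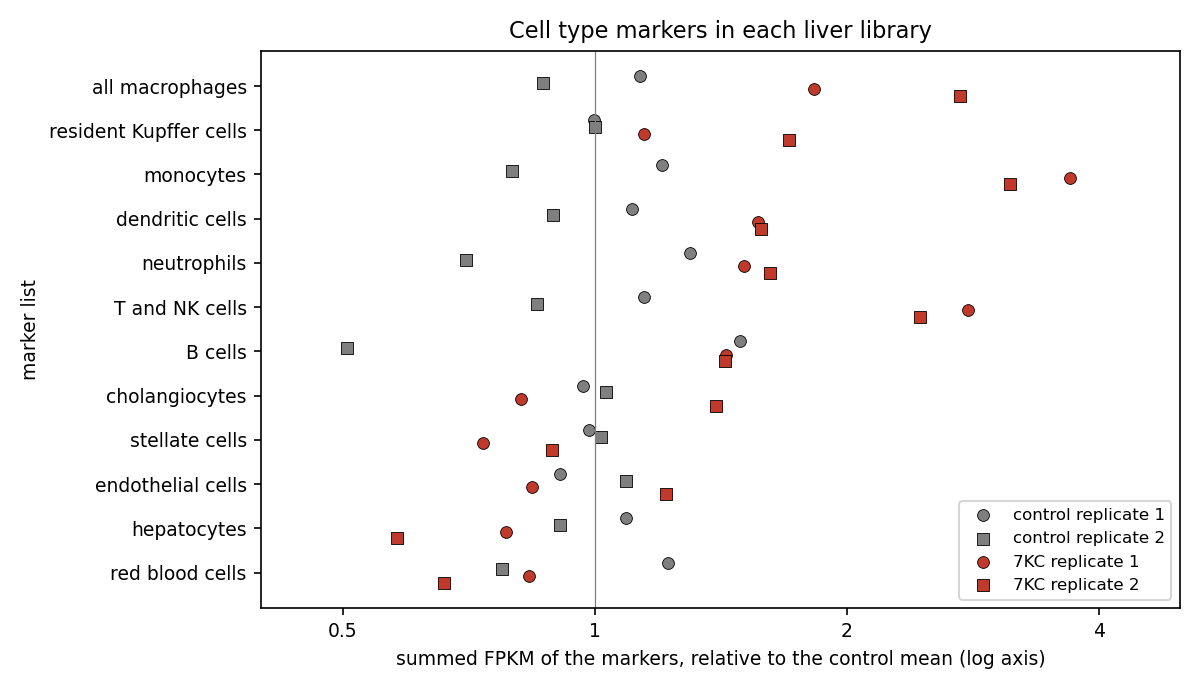
Summed FPKM of each cell type marker list in each library, relative to the mean of the control libraries (log axis; symbols as in the plot of FPKM by gene; adipocyte markers, near 0, are not drawn). The sums for all macrophages and Kupffer cells are highest in 7KC replicate 2, that for monocytes is highest in 7KC replicate 1, and that for hepatocytes is lowest in 7KC replicate 2.

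The genes most alike to the members in profile were sought among the 7164 other tested genes whose mean reached 5 FPKM. Likeness was the distance, over the 4 libraries, between a gene's centred log2(FPKM + 0.5) values and the mean centred profile of the members, which was -0.16 and -0.83 in control replicates 1 and 2, against -0.02 and 1.01 in 7KC replicates 1 and 2. Nearest were Rgs1 (distance 0.163), a regulator of G-protein signaling in leukocytes, Ly9 (0.214), a leukocyte surface receptor, Col1a2 (0.233), a fibrillar collagen chain, Mfge8 (0.240), a bridge between dying cells and phagocytes, and Lcn2 (0.255), a secreted siderophore-binding protein. Rgs1 was at 9.50 and 6.37 FPKM in control replicates 1 and 2, against 12.0 and 21.9 FPKM in 7KC replicates 1 and 2. None of these 5 genes passed the threshold (limma adjusted p 0.175 to 0.256). With 4 libraries there are few points, and many genes can share such a profile.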

How the data were processed

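The authors prepared stranded mRNA libraries from liver, sequenced them as 75-base single-end reads, mapped the reads to mm10 with TopHat and Bowtie2 and deposited FPKM values, 1 per gene symbol and library; the annotation and the handling of multi-mapped reads are not given in the sources used here. The submitters' processing notes name TopHat2 2.1.1, Bowtie2 2.2.8, SAMtools 0.1.18 and Cuffdiff 2.2.1, and the study's methods name Cufflinks and other versions. FPKM is relative to the whole library, so a fall in abundant hepatocyte transcripts raises other genes.

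Genes whose mean reached 0.5 FPKM, 12299 in all, were compared as log2(FPKM + 0.5) with limma 3.58.1 in R 4.3.3 (prior variance with a trend, group as the only term, two-sided, Benjamini-Hochberg adjustment over all genes, threshold 0.05), which was tested on simulated data. This scale understates changes of low genes. A permutation test of 2 against 2 libraries cannot reach the threshold. The error of a log2 change is limma's moderated SE. Depth was estimated from single-transcript genes of GENCODE M21, taking 200 bases off each transcript. Coordinates are GENCODE M21 (GRCm38, the assembly of mm10), and sequences are RefSeq's.

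The members and lists were chosen with earlier results of these data known. Besides the members, the text names in each companion list the genes past the threshold or, where at most 1 is, the 2 with the smallest p, the direct partners Tyrobp, Gpihbp1, Itgb2 and Cd44, and the 5 genes most alike in profile; Cd63 and the genes grouped with it were named after their values were seen. Some genes that this rule or the lists hold are not reported here by name. The companion gene Angptl8 and the markers Ly6g and Hbb-bt matched no listed symbol. Alternatives were other pseudocounts (1 and 0.1 FPKM), filters (none, 5 FPKM) and scalings, a prior without a trend, a replicate block and leaving out each library.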

Additional observations from a re-analysis of the deposited data

How the results depend on the processing

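The number of genes past the threshold depended on the processing. Against 59 genes higher, 3 lower and 1 companion gene called, a pseudocount of 1 FPKM gave 111 higher and 2 companion genes. No filter gave 0, 1 and 0, and a prior without a trend 39, 1 and 0. Rescaling to the same sum gave 398 higher, 7 lower and 14 companion genes, with the median log2 change of all genes moved from -0.03 to 0.16, and scaling by the median ratio gave 94 higher. Leaving out 1 library gave 2 to 389 higher, 1 to 52 lower and 0 to 12 companion genes, the highest counts being those without control replicate 1. The labels do not say whether the replicate numbers pair libraries of the 2 groups. Replicate 1 minus replicate 2 in the control group had a correlation of -0.14 across genes with the same difference in the 7KC group. That value cannot settle the question, since a pairing with a small shared effect could also give a weak correlation. With a replicate block the counts were 0 higher, 0 lower and 0 companion genes (1851 genes with an unadjusted p under 0.05). The crossed pairing, added after seeing that correlation, gave 551, 37 and 25.

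The median log2 change of the members was 0.41 to 1.60 with 1 library left out and 1.12 to 1.36 under the other alternatives. With a mean of at least 5 FPKM Mmp12 dropped out and the median of all 10 had no value. The log2 changes of 8 members kept their sign under every alternative run, and those of Cd9 and Mmp12 did not. With 2 libraries per diet, leaving out 7KC replicate 2 turned the sign of 0 members, and it took the log2 change of Trem2 from 1.11 to 0.25 and of Gpnmb from 1.46 to 0.47.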
